A study of Mus musculus with 20 samples.

Results

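RNA-seq was used to compare Trim33-KO with Trim33-WT cells while both were exposed to hydroxyurea (HU). The comparison covers 4 of the 20 libraries of the series, 2 of Trim33-KO and 2 of Trim33-WT cells, chosen by their labels, and all 11210 genes of the deposited count table. The cells are p19/Nras, a mouse liver cancer line that lacks p19Arf and is driven by Nras, and every group shares this background. Trim33-WT cells carried a control guide (sgCtrl) and Trim33-KO cells a guide against Trim33 (sgTrim33), and both were treated with 1 mM HU for 4 h. In the same experiment, 2 Trim33-WT and 2 Trim33-KO libraries received vehicle and are called untreated below. The labels name the Trim33-KO cells of this experiment by genotype only, without saying which knockout line they are, and nothing says that replicate libraries came from separate cultures. The p-values therefore measure only the spread between these libraries, which may be technical.

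Trim33, also called TIF1γ, is a nuclear ubiquitin ligase of the tripartite motif family that reads histone marks and is best known for modulating the output of TGF-β and BMP signals. HU inhibits ribonucleotide reductase, which starves replication forks of nucleotides and activates the checkpoint kinase Atr and its target Chk1. E2f factors, restrained by pocket proteins, drive the genes of the G1/S transition, and the study is concerned with Trim33, E2f4 and the helicase Recql under replicative stress. The question addressed here is which genes differ between Trim33-KO and Trim33-WT cells at the time when forks are stalled.

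Libraries of this experiment held 2315327 to 3082202 counts, and levels are given as CPM, counts relative to library size after TMM scaling. A gene was called deregulated at a Benjamini-Hochberg adjusted p below 0.01 in edgeR's quasi-likelihood test, which was fitted to all 8 libraries of the experiment, and log2FC is the log2 ratio of Trim33-KO over Trim33-WT. Adjusted p-values (p adj) below are from this test. HU acted in both lines, since Cdkn1a, a p53 target and inhibitor of cyclin-dependent kinases, was at 49.6 to 96.9 CPM in the 4 untreated and at 478 to 578 CPM in the 4 HU libraries. The core histone gene Hist1h2ao, one of several near-identical copies, was at 140 to 189 CPM untreated and at 18.7 to 33.1 CPM with HU. Of 16 hepatocyte markers, only Apob is in the table, at 2.37 to 4.45 CPM in the HU libraries, and albumin is not, whereas the epithelial keratin Krt8 was at 1059 to 1421 CPM in them. The labelled origin, hepatocellular carcinoma, is therefore not visible as hepatocyte RNA. Of the markers of other cell types, 2 of 11 leukocyte genes and 1 of 8 endothelial genes are in the table.

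Trim33 mRNA (Entrez 94093, chromosome 3, 103083216 to 103162691 on the plus strand of mm9) was at 142 and 139 CPM in the WT HU libraries and at 50.9 and 52.2 CPM in the KO HU libraries, as the labels give (log2FC −1.45, standard error 0.153, p adj = 2.94e-11). The remaining mRNA does not report on the protein, which was not measured here. Both other called members of the TIF1 family moved the other way. Trim24, a bromodomain cofactor of nuclear receptors that also reads histone marks, rose from 81.9 ± 4.21 to 152 ± 14.7 CPM (SD, n = 2; log2FC 0.90, p adj = 4.13e-06). Trim28 (Kap1), the cofactor of KRAB zinc finger repressors, rose from 250 ± 10.8 to 332 ± 10.1 CPM (log2FC 0.41, p adj = 0.00895). The rise of Trim28 was not called on a scale per chromosome, described further below (log2FC 0.17, p adj = 0.43).

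In all, 677 genes were deregulated between KO HU and WT HU (6.04% of those tested), of which 367 (3.27%) were upregulated and 310 (2.77%) downregulated in Trim33-KO cells. Most changes were moderate, with a median log2FC of 0.74 among upregulated and −0.88 among downregulated genes, and 131 upregulated and 123 downregulated genes differed by a log2FC of at least 1 in size. All 677 had KO and WT libraries that did not overlap, as did 55.4% of all genes tested. Scaling each chromosome by itself, a step added after the data were seen, left 397 genes, 348 of them among the 677. Leaving out 1 of the 4 libraries left 248 to 296.

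**Figure D1:**
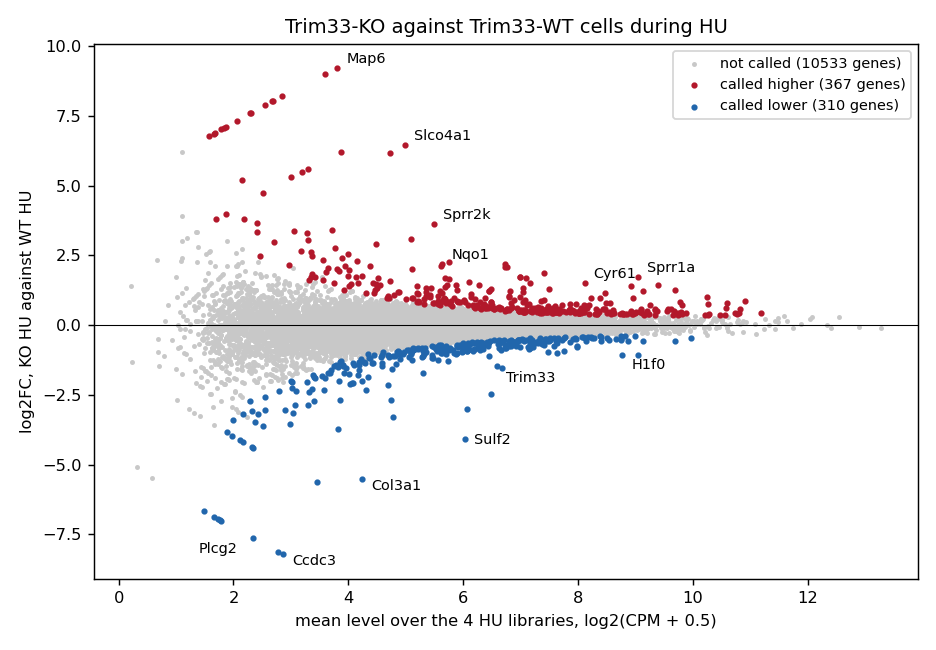
Each point is a gene, with its mean level over the 4 HU libraries on the x axis, as log2(CPM + 0.5), and its log2FC of KO HU over WT HU on the y axis. The 367 upregulated (red) and 310 downregulated (blue) genes spread over the whole range of levels, and points such as Map6 and Ccdc3, with log2FC of 9.20 and −8.22, are genes at 0 counts in both libraries of one line.

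Some of the called genes were detected in 1 line only within the HU libraries, at this depth. Of them, 15 had 0 counts in both WT HU libraries and 8 had 0 counts in both KO HU libraries. A fold change against 0 is a lower bound, computed here at 3 counts per library. Such bounds, and the counting intervals below, take each count as a separate event. Most low counts were even, as described under processing, so bounds may be too high and intervals too narrow. Map6, which encodes a microtubule-stabilizing protein of neurons, had 0 counts in WT HU and was at 24.7 and 29.2 CPM in KO HU, at least 27.1-fold higher (p adj = 1.65e-12). Syt13, a synaptotagmin of membrane traffic, was at 22.6 and 23.7 CPM in KO HU and at 0 in WT HU, at least 23.2-fold higher (p adj = 2.55e-12). Scrn1, a secernin with a role in exocytosis, was at 14.1 and 12.6 CPM against 0, at least 13.4-fold higher (p adj = 5.23e-08). Each of these 3 genes also had 0 counts in both untreated WT libraries and between 12.7 and 28.1 CPM in untreated KO. All 3 were detected in WT cells of the other experiment of the series, as given further below.

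Camk1d, a calcium/calmodulin-dependent kinase (at least 11.9-fold higher), the gene model Gm6880 (at least 11.9-fold) and Rin3, a guanine exchange factor for Rab5 (at least 10.8-fold), showed the same pattern with HU. Slco4a1, an organic anion transporter, had 2 counts in each WT HU library and was at 57.6 and 66.0 CPM in KO HU, a 92.8-fold difference with a 95% counting interval from 35.9 to 343. Tmem47, Uchl1, Gab3 and Snx20 likewise had 2 counts in 1 WT HU library and 0 in the other. Cntn3, a neuronal contactin, had 4 and 0 counts there and was at 43.8 and 58.5 CPM in KO HU (log2FC 6.17, standard error 0.457, p adj = 6.09e-17). Mgmt, the enzyme that removes alkyl groups from guanine in DNA, was chosen after its values were seen. It had 0 counts in WT HU and 17 and 10 counts in KO HU, at least 5.00-fold higher (p adj = 0.00213).

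Among the losses, Ccdc3, a secreted coiled-coil protein, was at 13.4 and 13.9 CPM in WT HU and had 0 counts in KO HU, at least 12.1-fold lower (p adj = 1.62e-07). Mpdz, a scaffold of tight junctions, was at 13.0 and 12.5 CPM in WT HU against 0, at least 11.4-fold lower (p adj = 1.11e-06). Plcg2, the phospholipase C of immune receptor signaling, which was named after its values were seen, was at 9.86 and 8.31 CPM against 0, at least 8.09-fold lower (p adj = 2.35e-05). Parp12 and Herc6, which are known as interferon-induced genes, and the transcription factor genes Nkx2-5 and Osr1 had 0 counts in both KO HU libraries too and were also named after their values were seen. Their WT HU levels were low, with 8 and 26 counts for Parp12 and 14 and 18 for Herc6.

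Promoter sequence is shown for 3 of these genes, 1 gained and 2 lost, because they had 0 counts in both HU libraries of one line. They were picked among genes with a RefSeq window. Each line gives the 250 bases before the start of the gene, 5′ to 3′ on the strand of the gene, from RefSeq on GRCm38.p6, with every CpG in capitals. The window of Scrn1 (chr6:54566383-54566632, minus strand) holds 11 CpG, that of Ccdc3 (chr2:5137526-5137775, plus strand) 22 and that of Plcg2 (chr8:117498025-117498274, plus strand) 17.
Scrn1: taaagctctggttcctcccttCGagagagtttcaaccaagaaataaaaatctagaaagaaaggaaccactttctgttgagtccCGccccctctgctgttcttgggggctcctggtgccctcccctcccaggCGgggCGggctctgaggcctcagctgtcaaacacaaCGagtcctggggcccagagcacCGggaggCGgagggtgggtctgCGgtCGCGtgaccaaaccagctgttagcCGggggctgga
Ccdc3: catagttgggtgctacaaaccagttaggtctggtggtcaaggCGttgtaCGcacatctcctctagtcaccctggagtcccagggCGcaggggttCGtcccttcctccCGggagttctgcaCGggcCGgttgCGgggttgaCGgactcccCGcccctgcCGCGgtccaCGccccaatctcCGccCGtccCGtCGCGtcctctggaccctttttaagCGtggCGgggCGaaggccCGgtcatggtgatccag
Plcg2: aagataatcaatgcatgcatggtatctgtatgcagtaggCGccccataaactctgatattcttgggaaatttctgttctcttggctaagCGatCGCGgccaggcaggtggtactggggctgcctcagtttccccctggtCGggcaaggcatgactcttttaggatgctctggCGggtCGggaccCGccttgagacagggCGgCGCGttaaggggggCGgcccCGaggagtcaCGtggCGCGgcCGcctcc
In windows that also include the 50 bases after the start, with the richest window taken for genes that have several, the median number of CpG was 22 for the 9 genes at 0 in WT HU that have a window, 24.5 for the 6 at 0 in KO HU and 23 for all 8560 genes with a window. DNA methylation was not measured in these libraries.

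Several of the 12 largest falls had more counts behind them. Sulf2, a secreted sulfatase that trims heparan sulfate, fell from 123 ± 7.89 CPM in WT HU to 7.29 ± 0.310 in KO HU (SD, n = 2; log2FC −4.07, standard error 0.231, p adj = 8.04e-22). Col3a1, a fibrillar collagen, was at 38.2 and 33.9 CPM in WT HU and had 2 counts in each KO HU library, a 48.4-fold difference with a counting interval from 18.6 to 179. Ncam1, a neural cell adhesion molecule, was at 43.3 and 54.0 CPM in WT HU and at 4.24 and 5.53 in KO HU (log2FC −3.31, p adj = 4.24e-13). The interleukin-5 receptor chain Il5ra was at 20.4 and 20.8 CPM in WT HU against 2 and 0 counts in KO HU. The mitochondrial carbonic anhydrase Car5b (log2FC −3.73), the sulfotransferase Chst15 (−3.55), the glycosyltransferase A4galt (−3.05), the activin antagonist Fst (−3.16) and the ligand Wnt7b (−3.02) complete the set with Etv1, described below. Wisp1, a matricellular target of Wnt signaling named after its values were seen, fell from 118 ± 1.45 to 14.5 ± 0.439 CPM (log2FC −3.02, p adj = 3.77e-17).

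**Figure D2:**
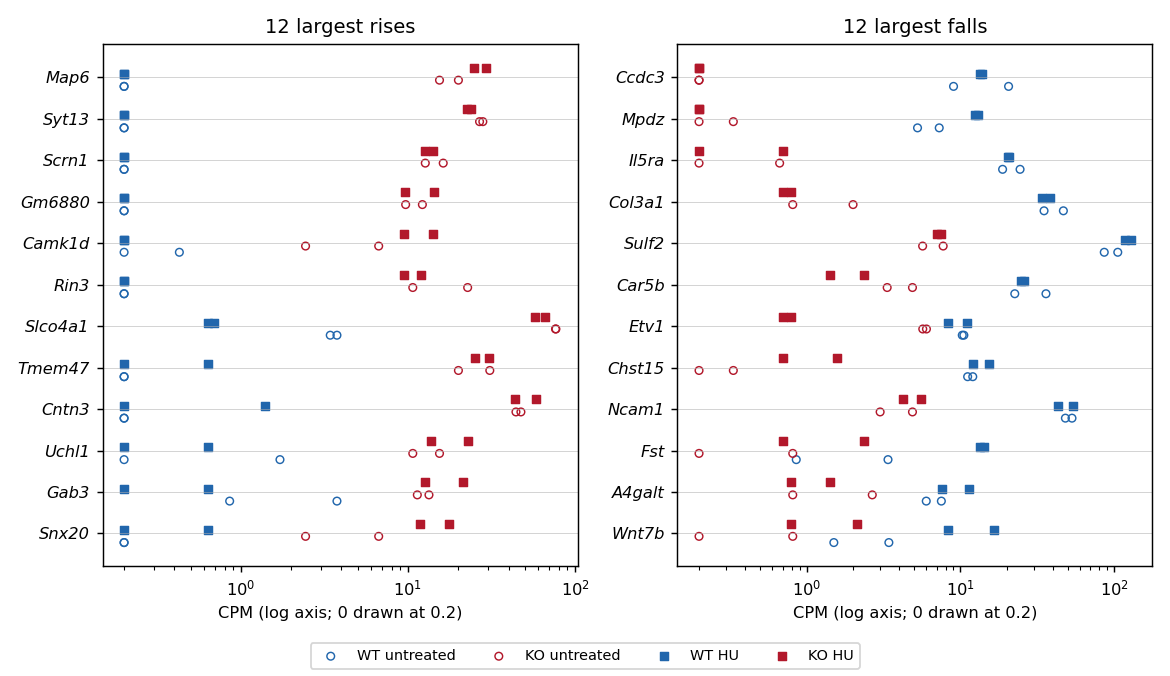
Levels in CPM on a log axis, with 0 drawn at 0.2, of the 12 genes with the largest rise (left) and the 12 with the largest fall (right) in KO HU against WT HU, one symbol per library. Squares are HU and open circles untreated libraries, blue is Trim33-WT and red Trim33-KO: for Map6, Syt13 and Scrn1 the untreated circles sit with the squares of the same line, whereas untreated Fst and Wnt7b are low in both lines.

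A cluster of genes on chromosome 3 that encode the cornified envelope of skin differed strongly between the lines, although these are liver cancer cells. The families (Sprr, Lce, Ivl, Lor) were picked once their values were known. Of 11 tested, 6 were upregulated, 2 downregulated and 3 not called with HU, where 3.27% of all genes were upregulated and 2.77% downregulated. The median log2FC was 1.19, against −0.007 over all genes. Sprr1a, a small proline-rich protein that is cross-linked into the envelope, was at 251 and 243.5 CPM in WT HU and at 828 and 793 in KO HU (log2FC 1.71, standard error 0.106, p adj = 1.81e-20). Sprr2k was at 6.36 and 6.93 CPM in WT HU and at 79.5 and 85.35 in KO HU (log2FC 3.63, p adj = 1.95e-17). Sprr1b (log2FC 1.42), Sprr2h (0.77), the late envelope gene Lce1g (2.25) and involucrin, Ivl (1.19), rose as well. Loricrin, Lor, was at 12.5 ± 4.41 and 18.5 ± 0.135 CPM and was not called (p adj = 0.32).

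Sprr2a1 and Sprr2a2 went the other way, from 17.8 and 14.2 to 4.24 and 4.35 CPM in the case of Sprr2a1 (log2FC −1.89, p adj = 0.00124). These are near-identical copies with almost equal counts, so they are best read as 1 signal, and sharing of reads among the Sprr2 genes is possible. In the untreated cells 5 of the 11 genes were upregulated and 0 downregulated. The neighbouring S100a genes, which encode calcium-binding proteins, had 3 of 9 members upregulated (3.27% of all genes): S100a6, S100a10 and S100a11, each by a log2FC of 0.55 to 0.57. On a scale per chromosome, which takes out the small rise of chromosome 3 as a whole, 5 of the 11 envelope genes stayed upregulated and 2 downregulated.

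The promoters of 4 of the 6 upregulated envelope genes are shown. These 4 were picked because they share a short motif, and those of Sprr1b and Lce1g are not shown. Each line gives the 250 bases before the start, from RefSeq on GRCm38.p6, with the AP-1 motif TGACTCA, or its complement on the other strand, in capitals. Positions are chr3:92485882-92486131, minus strand, for Sprr1a, chr3:92432332-92432581, plus strand, for Sprr2k, chr3:92385435-92385684, plus strand, for Sprr2h and chr3:92573736-92573985, minus strand, for Ivl.
Sprr1a: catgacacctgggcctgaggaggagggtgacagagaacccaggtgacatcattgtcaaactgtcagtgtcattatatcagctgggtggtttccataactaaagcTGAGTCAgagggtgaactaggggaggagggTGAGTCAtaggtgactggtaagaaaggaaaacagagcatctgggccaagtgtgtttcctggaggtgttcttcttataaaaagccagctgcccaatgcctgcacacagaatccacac
Sprr2k: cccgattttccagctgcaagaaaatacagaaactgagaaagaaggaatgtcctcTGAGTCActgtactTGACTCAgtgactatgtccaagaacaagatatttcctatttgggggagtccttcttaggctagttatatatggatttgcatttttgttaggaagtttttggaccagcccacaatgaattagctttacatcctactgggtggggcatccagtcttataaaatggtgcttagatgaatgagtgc
Sprr2h: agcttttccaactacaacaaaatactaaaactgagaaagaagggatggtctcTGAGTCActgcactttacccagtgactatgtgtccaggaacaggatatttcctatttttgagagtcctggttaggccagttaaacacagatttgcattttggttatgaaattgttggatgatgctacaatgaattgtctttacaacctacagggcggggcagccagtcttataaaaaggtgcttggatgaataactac
Ivl: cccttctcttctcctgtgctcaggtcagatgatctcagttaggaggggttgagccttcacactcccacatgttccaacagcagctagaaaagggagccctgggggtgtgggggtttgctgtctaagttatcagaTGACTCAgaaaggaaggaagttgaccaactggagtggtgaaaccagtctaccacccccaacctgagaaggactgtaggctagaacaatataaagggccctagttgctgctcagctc
The windows of Sprr1a and Sprr2k hold 2 copies each, and those of Sprr2h and Ivl 1 each. Counted over windows of 300 bases, of which 50 follow the start, 6 of the 11 envelope genes (54.5%) hold the motif, against 396 of all 8560 genes with a window (4.63%). Several of the 11 are related Sprr2 copies, so their windows are not independent. The genes with the motif are not split here by direction of change, and a link of the motif to the rise was not tested. Among deregulated genes it was present for 23 of 282 upregulated genes (8.16%) and for 11 of 222 downregulated genes (4.95%). The E2F motif TTCGCGC was present for 2.84% of upregulated and 3.60% of downregulated genes, against 3.90% of all genes. The motifs were searched on both strands, and a match in these windows is a description of letters and not a measurement of binding.

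Genes of the replication machinery, which the study centres on, did not pass the threshold during HU. The paper reports DNA replication as the leading enriched group among transcripts deregulated in its knockout lines. In the other experiment of the series, whose libraries were deeper, several of these genes were called, as given further below. Of 35 DNA replication genes edgeR and DESeq2 called 0, with a median log2FC of 0.07, and of 25 genes for licensing and firing of origins both called 0 (median −0.04). At an unadjusted p below 0.05 there were 8 and 5 of them in edgeR, against 2718 of all 11210 genes, and small differences were not detectable at this depth. Without HU, edgeR called 0 of the DNA replication genes, and 1 of the genes for origins was upregulated. Pcna, the sliding clamp, was at 293 and 277 CPM in WT HU and at 348 and 345 in KO HU (log2FC 0.28, p adj = 0.0897). The helicase subunits Mcm2 (log2FC 0.22, p adj = 0.199) and Mcm5 (0.02, p adj = 0.937) were not called either. Of 16 genes for ribonucleotide reductase and nucleotide supply 0 were called by either tool. In edgeR 8 of them had an unadjusted p below 0.05, a larger share than the 2718 of all 11210 genes. The log2FC was 0.27 for Rrm1 (p adj = 0.0755), −0.04 for Rrm2 (p adj = 0.847) and −0.94 for the p53-inducible subunit Rrm2b (p adj = 0.0273). With the 4 HU libraries alone, 1 DNA replication gene and 1 gene for nucleotide supply were upregulated. With replicate number as a block in the fit, 1 gene for nucleotide supply was downregulated.

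Of 12 RecQ and fork remodelling helicases 0 were called by either tool and 1 had an unadjusted p below 0.05. Recql was at 21.95 and 22.86 CPM in WT HU and at 24.74 and 18.97 in KO HU, with a log2FC of −0.03 and a 95% interval from −0.57 to 0.51. Of 19 genes for RPA and the checkpoint, Atr alone was called (5.26%, near the 6.04% of all genes), from 52.2 and 68.6 CPM in WT HU to 38.5 and 27.3 in KO HU (log2FC −0.87, p adj = 0.00167). The call of Atr was lost with DESeq2, without WT HU replicate 2 and without KO HU replicate 2. Chek1 (log2FC 0.13, p adj = 0.757) and Rpa2 (0.07, p adj = 0.858) were not called. Of 30 genes for homologous recombination and the Fanconi pathway, Brca2, a tumour suppressor of DNA repair, was called lower (3.33%, near the 2.77% of all genes downregulated), at 94.2 ± 3.97 against 60.3 ± 4.76 CPM (log2FC −0.64, p adj = 0.00691). The call of Brca2 was lost on a scale per chromosome (p adj = 0.0281), with DESeq2 and with any 1 of the 4 HU libraries left out.

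Of 20 E2f factors and pocket proteins with their partners, only Foxm1, the transcription factor of mitotic genes, was called (5%, near the 6.04% of all genes), at 172 ± 9.60 in WT HU and 293 ± 19.4 CPM in KO HU (log2FC 0.76, standard error 0.113, p adj = 6.40e-07). E2f4 was at 68.6 ± 11.4 and 62.8 ± 6.26 CPM (log2FC −0.13, p adj = 0.69), E2f1 at 76.9 ± 5.94 and 90.0 ± 5.76 (0.22, p adj = 0.443), and Rbl1 at 59.8 ± 4.53 and 62.0 ± 1.71 (0.05, p adj = 0.89). Rbl2, the pocket protein p130, was lower without passing the threshold (log2FC −0.67, p adj = 0.0714). Of 16 genes for G1/S cyclins, kinases and inhibitors, Ccnd2, a D-type cyclin, fell (6.25%, near the 6.04% of all genes; log2FC −0.55, p adj = 0.00314), though not with DESeq2 or without WT HU replicate 1, WT HU replicate 2 or KO HU replicate 2. Of 30 genes for G2/M and mitosis, 2 rose, a share of 6.67% that is near the 6.04% of all genes called: the Rrm2-degrading cyclin F, Ccnf (log2FC 0.82, p adj = 0.000373), and the mitotic ubiquitin-conjugating enzyme Ube2c (0.56, p adj = 0.00168). Without 1 HU library the G2/M list had 1 or, without KO HU replicate 2, 0 upregulated genes.

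Some members of the p53 pathway differed between the lines with HU. Of 30 genes tested, 5 were upregulated and 1 downregulated (20%, against 6.04% of all genes), with a median log2FC of 0.02. Mdm2, the p53 target that degrades p53, was at 1242 and 1228 CPM in WT HU and at 1712 and 1474 in KO HU (log2FC 0.37, p adj = 0.00646). Trp53 itself rose from 162 ± 0.344 to 243 ± 4.92 CPM (log2FC 0.58, p adj = 0.000268), and the apoptotic effector Bax from 129 ± 4.20 to 198 ± 3.97 (0.61, p adj = 0.000924). Ckap2, a spindle protein (log2FC 0.62), and the nuclease Aen (0.46) rose too, while Sulf2, given above, was the member that fell. Cdkn1a was at 478 in each WT HU library (478.2 and 478.6) and at 578 and 564 CPM in KO HU, and was not called with HU (log2FC 0.26, p adj = 0.105). Of 17 Bcl2 family genes, Bax and the survival factor Bcl2l1 rose (11.8%, against 6.04% of all genes; log2FC 0.55 for Bcl2l1), and 0 of this list were called with any 1 HU library left out or on a scale per chromosome. The calls of Bax (p adj = 0.082) and Aen (0.315) were lost on a scale per chromosome, which left 3 upregulated genes on the p53 list. Without WT HU replicate 1 or 2 it had 1 or 0 upregulated genes, and without KO HU replicate 1 or 2 it had 1 or 2.

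On the lists for NF-kB and interferon, the genes that were called were lower in Trim33-KO cells. Of 26 genes for NF-kB and TNF signaling, 0 were upregulated and 4 downregulated (15.4%, against 2.77% of all genes downregulated), and 22 had a log2FC below 0, with a median of −0.28. The chemokine Ccl20 was at 17.2 and 18.01 CPM in WT HU and at 2.12 and 3.16 in KO HU (log2FC −2.73, p adj = 0.000458). Tnfaip3 (A20), which ends NF-kB signaling and is induced by it, was at 98.3 and 103 CPM against 55.1 and 54.1 (log2FC −0.88, p adj = 0.000235). The NF-kB subunit Rela (log2FC −0.57, p adj = 0.0036) and Tnfaip2 (−0.57, p adj = 0.000938) fell as well, but neither was called on a scale per chromosome (p adj = 0.046 and 0.474). Without WT HU replicate 1 or 2 the list had 1 or 0 downregulated genes, and without either KO HU library 2. With the 4 HU libraries alone or with halved counts, 2 of its genes were upregulated. Without HU the same list had a median of 0.03, with 0 members upregulated and 2 downregulated, and the difference between the medians was not tested. Tnfaip3 had a log2FC of 0.04 there, and its difference between the conditions was not called (difference −0.92, standard error 0.273, p adj = 0.565).

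Of 15 interferon-stimulated genes tested, only Irf1, an early interferon-regulated transcription factor, was called (6.67%, near the 6.04% of all genes), falling from 69.7 ± 0.424 to 39.1 ± 1.67 CPM (log2FC −0.83, p adj = 0.00166), and it was not called with any 1 HU library left out. The list median was −0.43 with HU and −0.50 untreated, and 22 of its 37 genes are not in the table. Of 6 genes for MHC class I presentation 0 were called by either tool and 1 had an unadjusted p below 0.05 (median −0.47 with HU, 0.02 untreated). On a scale per chromosome, or with the 4 HU libraries alone, 1 of the 6 was called lower.

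In the TGF-β and BMP pathway, in which Trim33 is known to act, members rose and fell. Of 37 tested, 3 were upregulated and 4 downregulated (18.9%, against 6.04% of all genes), with a median of −0.04. Among ligands, Bmp2 rose from 63.8 ± 9.69 to 208 ± 5.26 CPM (log2FC 1.70, standard error 0.142, p adj = 5.73e-15) and Gdf15, a stress cytokine of the family, from 219 ± 9.37 to 362 ± 8.40 (0.72, p adj = 9.86e-06), while Tgfb3 fell from 10.8 and 6.93 to 1.41 and 0.395 CPM (−3.20, p adj = 0.00307). Tgfb3 was no longer called on a scale per chromosome (p adj = 0.0177). With any 1 HU library left out the list had 3 upregulated genes and 0 downregulated ones, or 1 without KO HU replicate 2, and DESeq2 called 1 lower. The receptor Tgfbr1 fell by 0.72 on the log2 scale and the latency protein Ltbp3 by 0.45, and Fst, which binds activins and BMPs outside the cell, fell as given above. Id1, a transcriptional target of BMP signals, rose from 77.3 and 69.96 to 143 and 154 CPM (log2FC 1.01, p adj = 1.86e-07).

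Among AP-1 and immediate-early genes, 3 of 25 rose and 3 fell (24%, against 6.04% of all genes; median −0.06). Cyr61, a matricellular gene that also belongs to the targets of Yap, was at 134.9 and 154.5 CPM in WT HU and at 422.4 and 395.5 in KO HU (log2FC 1.5, standard error 0.114, p adj = 1.12e-16). Fosb, an AP-1 subunit, was at 19.7 and 15.2 against 41.7 and 37.9 CPM (log2FC 1.18, p adj = 0.00774), and Ier3 rose by a log2FC of 1.16. Klf10, a TGF-β-inducible factor (log2FC −0.60), the AP-1 subunit Jund (−0.45) and Myc fell. Myc was at 385 and 331 CPM in WT HU and at 266.5 and 253.3 in KO HU (log2FC −0.46, p adj = 0.00339), and was not called on a scale per chromosome (−0.21, p adj = 0.315). On that scale, and with DESeq2, 2 of the 25 were upregulated and 0 downregulated, and with any 1 HU library left out 2 were upregulated and 0 or 1 downregulated. In the Myc, Max and Mxd network, Myc fell and the Myc antagonist Mxi1 rose (log2FC 0.69, p adj = 0.00274), 20% of 10 genes against 6.04% of all genes. These calls did not hold with DESeq2 or with any 1 HU library left out. Mycl, which the list held under another symbol and so missed, was added after its values were seen. It had 0 counts in both WT HU libraries and 19 and 20 in KO HU, at least 7.33-fold higher (p adj = 0.000128).

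Genes of Ras and MAPK signaling had a median log2FC of 0.31, with 3 of 17 upregulated and 1 downregulated (23.5%, against 6.04% of all genes). The phosphatase Dusp5, which retains ERK in the nucleus, was at 35.3 and 38.4 against 72.8 and 60.1 CPM (log2FC 0.85, p adj = 0.00279), and the inhibitor Spred3 rose alike (0.86, p adj = 0.00646). Nras itself was at 317 ± 15.96 and 401 ± 2.24 CPM (log2FC 0.34, p adj = 0.0255). Etv1, an ETS factor, was at 8.27 and 11.1 CPM in WT HU and had 2 counts in each KO HU library, a 12.9-fold difference with a counting interval from 4.77 to 48.9. On a scale per chromosome the median of the list was 0.17, and with DESeq2 or with any 1 HU library left out 0 genes were upregulated, or 1 without KO HU replicate 2.

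Antioxidant enzymes were split. Of 20 genes for Nrf2 and antioxidant defence, 2 rose and 2 fell (20%, against 6.04% of all genes; median 0.22). Nqo1, the quinone reductase that is a standard readout of Nrf2, was at 15.6 and 20.1 CPM in WT HU and at 87.0 and 73.9 in KO HU (log2FC 2.18, standard error 0.212, p adj = 1.93e-12), and the glutathione transferase Gsta4 rose by a log2FC of 1.40. Both superoxide dismutases that were called fell: the extracellular Sod3 from 45.5 ± 2.26 to 7.09 ± 0.0304 CPM (log2FC −2.67, p adj = 1.11e-10) and the cytosolic Sod1 from 190 ± 5.95 to 128 ± 8.46 (−0.58, p adj = 0.00124). Sod1 was not called on a scale per chromosome (p adj = 0.0183), and the list had 1 downregulated gene without WT HU replicate 1, WT HU replicate 2 or KO HU replicate 1.

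Of 23 genes of the integrated stress response, 0 rose and 3 fell (13%, against 6.04% of all genes called): Vldlr, a lipoprotein receptor (log2FC −1.12, p adj = 1.52e-06), the mTORC1 inhibitor Ddit4 (−0.54, p adj = 0.00751) and the mitochondrial one-carbon enzyme Shmt2 (−0.42, p adj = 0.00537). With DESeq2, on a scale per chromosome and with any 1 HU library left out, 1 of this list was downregulated. Of 32 extracellular matrix and integrin genes, Col3a1 and fibronectin, Fn1 (log2FC −0.58), fell and the integrin chain Itgav rose (0.54), 9.38% of the list against 6.04% of all genes. Fn1 was at 996 and 985 CPM in WT HU and at 682 and 647 in KO HU. Of 21 Hippo and Yap genes (9.52% called), Cyr61 rose and the pathway scaffold Sav1 fell (log2FC −0.75), though Sav1, on chromosome 12, was not called on a scale per chromosome (p adj = 0.118). Of 25 cholesterol synthesis genes Hsd17b7 rose (4%, log2FC 1.35). Of 24 ribosome biogenesis genes Polr1a, the large subunit of RNA polymerase I, rose (4.17%, log2FC 0.50), as did, of 4 imprinted genes, Phlda2 (25%, log2FC 2.15). With DESeq2 0 genes of either list were upregulated. Of 5 C/EBP genes with Lcn2, 0 were called by either tool and 0 had an unadjusted p below 0.05.

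Markers of cell state showed the same mixed picture. Of 7 epithelial and progenitor markers, Krt19 (log2FC 0.68) and Krt8 (0.37) rose and Cd24a (−0.47) fell (42.9%, against 6.04% of all genes). Their summed level was 3096 to 3189 CPM in WT HU and 3554 to 3703 in KO HU. Of 8 mesenchymal markers only Col3a1 was called (12.5%, against 6.04% of all genes), and 7 had a log2FC below 0 (median −0.71). Yet their summed level was 3075 to 3090 CPM in WT HU and 3653 to 3677 in KO HU. Vim, at 2730 CPM in WT HU and 3420 in KO HU on average, makes up most of that sum (p adj = 0.0101). The 2 leukocyte markers summed to 48.0 and 51.6 CPM in WT HU and to 43.1 and 39.1 in KO HU, and 0 were called by either tool or had an unadjusted p below 0.05. Their part in the results was not tested, and in bulk RNA fewer cells of a kind and less RNA per cell cannot be told apart.

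**Figure D3:**
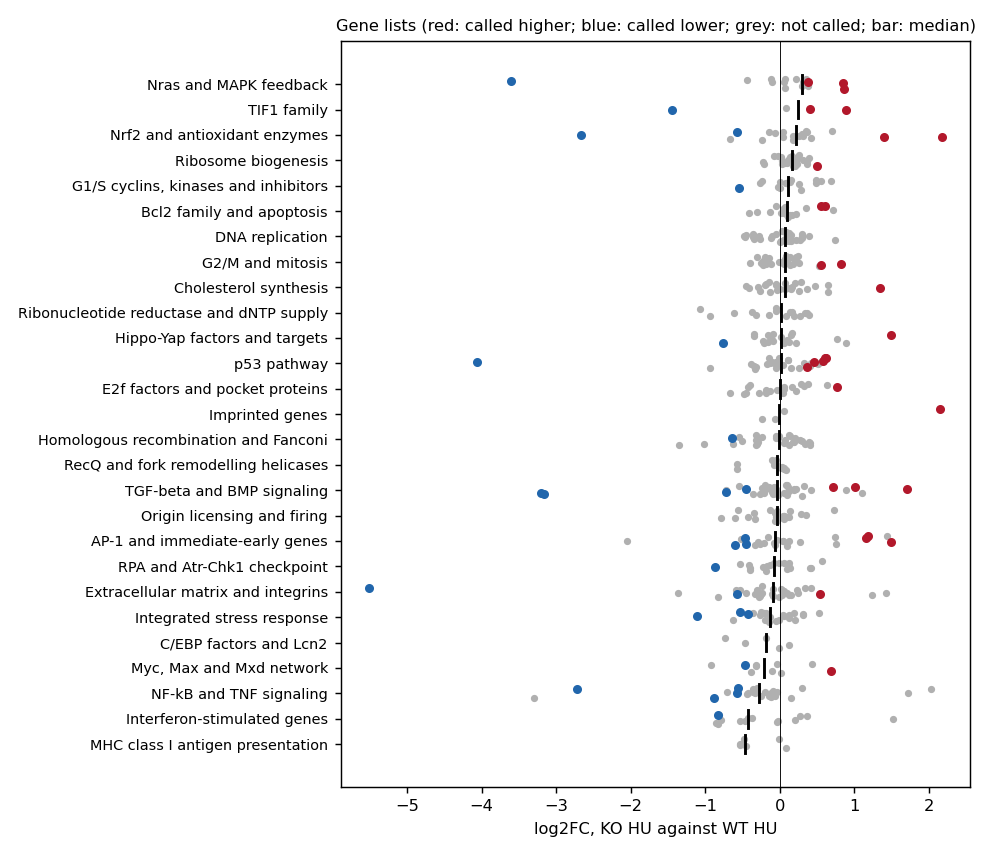
Each point is a gene of a list, at its log2FC of KO HU over WT HU, with upregulated genes in red, downregulated genes in blue, genes not called in grey and the median of the list as a bar. The medians of the replication, origin and dNTP lists, 0.07, −0.04 and 0.02, lie close to 0 and none of their genes was called, while the lists for NF-kB and TNF signaling and for interferon-stimulated genes have medians of −0.28 and −0.43.

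Whole chromosomes differed in level between the lines, which bears on the calls above. The 375 genes tested on chromosome 12 had a median log2FC of −0.41 with HU, and the 443 on chromosome 15 a median of −0.25, and in every pairing of a KO HU with a WT HU library the median on chromosome 12 lay between −0.41 and −0.39. On chromosome 12, 87.2% of the genes were below 0, and 53 were downregulated against 4 upregulated. Chromosomes 7 (median 0.23), 4 (0.19), 6 (0.18), 3 (0.17), 17 (0.17) and 2 (0.15) were shifted upwards. Chromosomes 12 and 15 hold 7.65% of the placed genes and 32.6% of the downregulated ones, and the 6 chromosomes shifted upwards hold 36.3% of the placed genes and 66.1% of the upregulated ones.

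The same shifts were present without HU, at −0.36 on chromosome 12, −0.23 on chromosome 15 and 0.29 on chromosome 7. Within chromosome 16 the shift changed along the sequence, with a median of 0.20 for the 47 genes between 40 and 60 Mb and of −0.50 for the 54 genes between 80 and 100 Mb of mm9. Sod1 lies on chromosome 16, Myc and Krt8 on chromosome 15, Rrm2 on chromosome 12, and Rrm2 had a log2FC of −0.04 on the common scale and 0.35 on the scale per chromosome (p adj = 0.0245). DNA copy number was not measured, and its part in these shifts was not tested. Trim33 lies on chromosome 3, and its log2FC was −1.61 on the scale per chromosome. Among the other genes given above, Ivl, S100a11, Ube2c, Ltbp3, Fosb, Klf10, Jund, Spred3, Ddit4, Shmt2, Itgav, Polr1a, Phlda2, Bcl2l1 and Cd24a were not called on that scale either, with the same sign of log2FC.

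**Figure D4:**
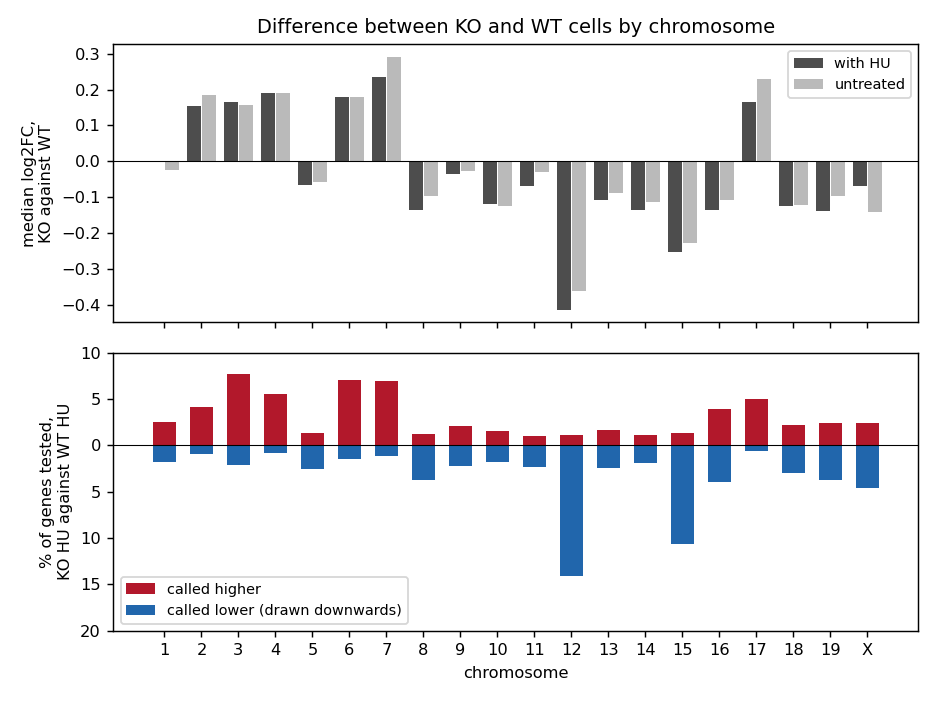
The upper panel gives, for each chromosome on the x axis, the median log2FC of KO over WT with HU (dark) and untreated (light), and the lower panel the percent of its genes tested that were upregulated (up) and downregulated (down) in KO HU against WT HU. Chromosome 12 is lowest, at −0.41 and −0.36, with 14.1% of its genes downregulated, and chromosome 7 is highest, at 0.23 and 0.29.

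To see how far the difference between the lines belonged to HU, the untreated libraries were compared in the same fit. Untreated Trim33-KO cells had 626 deregulated genes (5.58%), 344 upregulated (3.07%) and 282 downregulated (2.52%). Of the genes called, 353 were called with and without HU, 52.1% of the first set and 56.4% of the second, all in the same direction, 205 higher and 148 lower. Of the 324 genes called with HU alone, 312 had the same sign without it. The comparisons use different libraries, and across all genes their log2FC values had a Pearson correlation of 0.695 (Spearman 0.545), given as a description since genes share libraries and are not independent.

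A gene called in one condition and not in the other is not shown to differ between them, and the test of the difference called 8 genes at p adj below 0.05 (0.0714%), 5 with a higher (0.0446%) and 3 with a lower (0.0268%) log2FC under HU. Of these, 2 also passed 0.01 (0.0178%), while 602 of all genes had an unadjusted p below 0.05. H1f0, the linker histone of differentiated cells, was at 601 and 580 CPM in WT HU and at 309 and 254 in KO HU, against 686 and 724 in untreated WT and 554 and 621.5 in untreated KO. Its log2FC was −1.07 with HU and −0.26 without, and the difference of −0.81 (standard error 0.148) had a p adj of 0.00935. The linker histone gene Hist1h1c, named after its values were seen, also fell with HU (log2FC −1.07, p adj = 0.000361) at −0.03 untreated, though its difference was not called (p adj = 0.565). Of 21 replication-dependent core histone genes 0 were called between the lines by either tool and 3 had an unadjusted p below 0.05, and 8 fell with HU in WT and 8 in KO cells (at p adj below 0.05, where 3.44% and 1.80% of all genes fell).

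Klf4, a pluripotency factor and brake on proliferation, was at 39.8 and 23.3 CPM in untreated WT and 61.8 and 60.1 in untreated KO cells, and at 183 and 202 in WT HU against 170 and 163 in KO HU, so its log2FC was 0.96 untreated and −0.21 with HU (difference −1.17, standard error 0.228, p adj = 0.0108). Sprr1a differed in both conditions, more without HU (log2FC 2.45) than with it (1.71, difference −0.74, p adj = 0.0235). Ppp2r1b, a scaffold subunit of the phosphatase PP2A, was at 75.1 and 74.8 CPM in WT HU and at 183 and 193 in KO HU, and its log2FC was 1.32 with HU and 0.44 without (difference 0.89, p adj = 0.0317). Among the genes nearest the threshold that did not pass it, the prostaglandin synthase Ptgs2 had log2FC values of 0.59 and 1.22 (difference −0.62, p adj = 0.0721) and the AP-1 subunit Fosl1 of −0.52 and 0.73 (−1.24, p adj = 0.22).

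The other 4 genes were a pair of ribosomal RNA genes, Lars2 and a gene without a symbol. Rn18s, the 18S ribosomal RNA, was at 1930 and 2059 CPM in WT HU, 2719 and 2604 in KO HU, 2762 and 1984 in untreated WT and 1895 and 1881 in untreated KO (difference 0.75, p adj = 0.00935). Rn28s1 (difference 0.71, p adj = 0.0174) and Lars2, a mitochondrial tRNA synthetase gene (0.88, p adj = 0.0168), had differences of the same sign. The share of ribosomal RNA was thus not the same in the groups, and its part in the results was not tested. The gene listed only by its Entrez identifier had 12 and 8 counts in WT HU and 39 and 13 in KO HU, and 0 in both untreated KO libraries. Without Rn18s, Rn28s1, Rn45s and Lars2 the test of the difference called 4 genes. When any 1 HU library was left out, 0 or 1 gene passed, and when any 1 untreated library was left out, 2 to 20 passed.

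**Figure D5:**
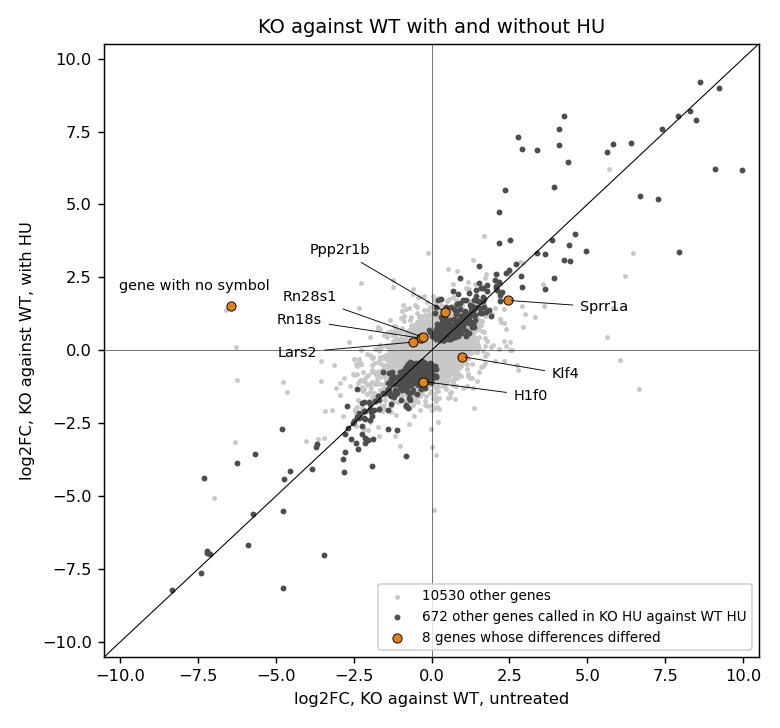
Each point is a gene, with its log2FC of KO over WT in untreated cells on the x axis and with HU on the y axis, and the diagonal marks equal values. Dark points are other genes called in KO HU against WT HU, most of them on the same side of 0 on both axes, and orange points are the 8 genes whose log2FC differed between the conditions, H1f0 lying below it and Ppp2r1b above it.

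The other experiment of the series allowed the genes called with HU to be looked up in the lines named KO1 and KO2, which carried the pWZL vector without Myc, received no treatment and were compared with WT cells of the same vector in a separate fit. In those lines 52.2% and 49.9% of all genes tested were called. Libraries of that experiment held 14753177 to 17949430 counts, against 2315327 to 3082202 in the HU experiment. Shares of genes called, and calls of single genes, are therefore not comparable between the experiments. Of the 677 genes, 667 are in that table, and 46% had the same sign in KO1 and 49.5% in KO2. Restricted to genes with a log2FC of at least 1 in size, the shares were 48.4% and 50% of 244. KO1 and KO2 are compared with the same WT libraries, and the correlation of log2FC with that of KO HU against WT HU across all 11161 shared genes was −0.018 for KO1 and 0.036 for KO2.

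Single genes ran with the HU experiment or against it. For Trim33 the log2FC values were −0.99 in KO1 and −0.31 in KO2, and for Trim24 they were 0.43 and 0.36. Slco4a1, in the same order, had values of 2.03 and 1.97. Those of Col3a1, nearly absent from KO HU, were 5.87 and 2.82. Sprr1a ran against the HU experiment (−1.46 and −1.78), whereas Sprr1b ran with it (4.98 and 6.11). Several genes at 0 counts in WT HU were detected in the WT cells compared with KO1 and KO2. Levels there were 7.14 and 7.25 CPM for Map6, 6.08 and 4.24 for Syt13, and 14.3 and 15.2 for Scrn1. Camk1d was at 41.5 and 42.5 and Rin3 at 17.5 and 21.9 CPM. Map6 was higher in KO1 and KO2 (0.90 and 0.97). Scrn1 (−0.62 and −0.26), Camk1d (−3.44 and −3.30) and Rin3 (−5.86 and −11.3) were lower. Rin3 was at 0 CPM in both KO2 libraries, so its value of −11.3 is a fold against 0 and not a measured size. Syt13 had values of 0.75 and −0.02. Among the replication and nucleotide supply genes named above, Rrm1 (0.80 and 1.07) and Rrm2 (0.97 and 1.49) were called higher in KO1 and KO2. So were Rpa2 (0.90 and 1.18), Mcm5 (0.51 and 0.88) and Pcna (0.41 and 0.69). Mcm2 (−0.30 and −0.04) and Rrm2b (−0.69 and −0.94) had values below 0. The replication lists as a whole were not compared there. The chromosome shifts also differed, with a median of −0.03 for chromosome 12 in KO1 and in KO2. For Col3a1, Sprr1a, Sprr1b and chromosome 12, values without HU are given as well, and other genes were not followed in this way. KO over WT of the vehicle libraries had a log2FC of −4.76 for Col3a1 and 2.45 for Sprr1a, opposite in sign to KO1 and KO2. Sprr1b, at 1.36 there, ran with them, and the median of chromosome 12 was −0.36. The experiments have separate count tables, and line, vector and batch cannot be told apart between them. The part of HU in the mismatch was not tested.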

How the data were processed

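Per the labels, RNA was extracted with TRIzol and sequenced from NEBNext Ultra II libraries. The submitters' processing notes name bcl2fastq 2.20, FastQC 0.11.5, STAR 2.5.4, edgeR 3.26.8 and the build mm9. The authors deposited whole-number counts per gene, unnormalized for the HU experiment. Those of the Myc experiment carry the name Norm counts, which may mean that they were normalized, and were fitted as counts. The counting tool and annotation are not given in the sources used here. The authors also deposited log2FC and p-values of their own comparisons, which were not used.

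Counts were analysed with edgeR 4.0.16, limma 3.58.1 and DESeq2 1.42.0 in R 4.3.3, with TMM factors from 0.982 to 1.02 and filterByExpr, which removed 0 of 11210 genes. The HU experiment (8 libraries, 2 per group) was fitted with 1 coefficient per group, the quasi-likelihood test was two-sided, and the Myc experiment was fitted alone. Thresholds on the adjusted p were 0.01 between lines and 0.05 for differences between conditions. The biological coefficient of variation was 0.102 with 58.5 prior degrees of freedom.

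Counts from 1 to 50 were even in 70.2% to 73.3% of cases per library, against 48.4% in the Myc experiment (the reason is not given in the sources used here). Halved counts were an alternative. Floors and 95% intervals of ratios (exact binomial) cover counting error only and take each deposited count as a separate event. The excess of even counts puts this in doubt, so floors may be too low and intervals too narrow. A total of 168 genes carry no symbol and belong to no list, and 10689 were placed on a chromosome by symbol in the mm9 annotation (GENCODE vM1). Sequences come from RefSeq (GRCm38.p6), with windows for 8560 genes matched by Entrez identifier.

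Named genes are those the study is about, the 12 largest rises and 12 largest falls among called genes of at least 5 CPM whose groups do not overlap, up to 2 called genes per direction in each list with 1 or 2 uncalled members, and the 5 smallest p per direction for the difference. Further called members of lists and other genes were named after their values were seen. The genes compared, the lists and the alternatives were chosen with earlier results of these data known.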

Additional observations from a re-analysis of the deposited data

Results flagged for a closer look

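For 8 genes the difference between Trim33-KO and Trim33-WT cells changed with HU, by edgeR's quasi-likelihood test of the difference (Benjamini-Hochberg adjusted p below 0.05). The log2FC with HU minus that without was −0.81 for H1f0, −1.17 for Klf4, −0.74 for Sprr1a, 0.89 for Ppp2r1b, 0.75 for Rn18s, 0.71 for Rn28s1, 0.88 for Lars2 and 7.96 for a gene listed only as Entrez 100502672. That last gene had 0 counts in both untreated KO libraries and 39 and 13 counts in KO HU. For Rn18s, the untreated WT libraries were themselves far apart, at 2762 and 1984 CPM. H1f0 and Klf4 were the pair with the lowest p among genes that are not ribosomal.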

How the results depend on the processing

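For KO HU against WT HU, 677 genes were called. The count moved by over 1.5 times with the 4 libraries alone in the fit (1099), with DESeq2 (402, 401 of them shared), on a scale per chromosome (397), at an adjusted p below 0.05 (1233), with a log2FC of at least 1 (254), and without WT HU replicate 1 or 2 (248, 259) or KO HU replicate 1 or 2 (293, 296). Such a fit leaves 1 library in an arm, which is assumed to vary like the other groups. The share of upregulated genes was 54.2% and 61% on the scale per chromosome, which like the removal of ribosomal RNA genes was chosen after seeing the data. For untreated cells (626 genes) it moved with DESeq2 (396), on a scale per chromosome (394), at 0.05 (1349), with a log2FC of at least 1 (252), and without untreated KO replicate 2 (337, against 429 to 459 without each of the others). For the difference between conditions (8 genes) it moved with DESeq2 (5), without the ribosomal RNA genes and Lars2 (4), at 0.01 (2), with a log2FC of at least 1 (2), and without 1 library (0 to 20): 20 without untreated WT replicate 1, 2 without its replicate 2, 5 and 2 without untreated KO replicates 1 and 2, 0 without either WT HU library and 1 without either KO HU library. The causes were not tested, though leaving out a library or using 4 changes the number of samples. The replicate block gave 802, 791 and 10 genes. Deviations of libraries with the same replicate number correlated at −0.024 to 0.0875. Whether such libraries shared a culture or a batch is not settled by these values. Of 81 genes named by rule for the comparison with HU, the 65 called kept their direction in every alternative, and 129 of 1025 single values lost the call. None of 7 genes that changed sign was called. The KO HU and WT HU libraries of every called gene do not overlap, so leaving 1 out could hardly reverse its direction. The kept directions therefore add no support. Without 1 library, log2FC ranged from −0.29 to 0.05 for E2f4, −0.24 to 0.14 for Recql, −0.02 to 0.13 for Rbl1, −0.06 to 0.36 for Chek1, −0.05 to 0.18 for Rpa2, −0.11 to 0.14 for Mcm5 and −0.09 to 0.005 for Rrm2, with Mcm5 also at −0.02. On a scale per chromosome it was −0.13 for Rbl1, −0.13 for Rpa2 and 0.35 for Rrm2. Depth limits the genes with few counts, for which folds carry counting intervals.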
